A study of Mus musculus with 16 samples.

Results

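Pericytes are mural cells that wrap capillaries, and smooth muscle cells surround larger vessels and the hair follicle. The transcripts followed here are those of 10 genes used as markers of these cells, Rgs5, Pdgfrb, Acta2, Myh11, Tagln, Cspg4, Notch3, Des, Kcnj8 and Abcc9. They were found by matching Ensembl identifiers to gene symbols, 10 of the 50600 genes in the deposited table, and all 10 were among the 22155 genes tested. They were measured by RNA-seq in epidermal cells of the footpad from 16 female C57/B6J mice, with 1 library per mouse and 4 mice in each of 4 groups. From 5 wk of age the mice were fed for 3 wk either the purified diet labelled SYNTH, which holds few ligands of the aryl hydrocarbon receptor (AhR-poor diet), or that diet with 200 ppm of indole-3-carbinol, a precursor of such ligands (I3C diet). On each diet, 4 mice received a footpad injection of PBS alone (vehicle, 50 μl) and 4 received the same volume holding 50 μg of papain, a cysteine protease used as an allergen. Cells were collected after 6 hr. The dermis was removed with dispase, so the tissue should hold keratinocytes and few or no vessels. Cage mates ate the same diet, so an effect of diet and an effect of cage cannot be told apart, and the libraries came from 3 sequencing units that their names do not identify.

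In vessels, endothelial cells release PDGF-B, which binds the receptor encoded by Pdgfrb on pericytes, and Notch ligands on the endothelium bind the receptor encoded by Notch3 on mural cells. Acta2 (smooth muscle alpha-actin), Myh11 (smooth muscle myosin heavy chain), Tagln (an actin-binding protein also called SM22) and Des (the intermediate filament desmin) form the contractile apparatus. Kcnj8 and Abcc9 encode the pore and the regulatory subunit of the vascular ATP-sensitive potassium (KATP) channel, and Rgs5 encodes a regulator of G protein signalling enriched in pericytes. Several of these genes are not restricted to mural cells. Notch3 and the proteoglycan gene Cspg4 (NG2) are also transcribed in keratinocytes, Pdgfrb in fibroblasts, Des in skeletal muscle and Acta2 in the myoepithelial cells of sweat glands.

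Library totals lay between 22500821 and 51844375 counts, and 3 counts, taken as the detection floor, equalled 0.0569 to 0.130 CPM (counts divided by the scaled library total), a limit that covers counting error only. Keratinocyte markers dominated every library, with 174997 to 502479 counts for Krt5, 206537 to 503688 for Krt14 and 478523 to 1196992 for Krt10. Many markers tied closely to mural cells were sparse. Others, named after their values were seen, were not. Among them, the pericyte markers Ndufa4l2 and Steap4 had 2497 to 10057 and 556 to 2651 counts per library. The pericyte marker Mcam had 224 to 1387 and the contractile gene Smtn 1930 to 3938. Higd1b and Pln had no count in any library, Myocd, which drives the smooth muscle programme, had 1 count in 1 of the 16 libraries, Vtn had at most 3 counts in an AhR-poor library and 0 in every I3C library, and Myh11 had at most 9. Others were counted mainly on the AhR-poor diet, such as Foxs1, a transcription factor of pericytes named after its values were seen, with 4 to 17 counts against 0 to 2 on the I3C diet (not called, adjusted p = 0.0109 with vehicle and 0.0296 with papain). The 10 genes are therefore described one by one rather than as a measure of 1 cell type. In bulk RNA, fewer cells of a type and less RNA per cell cannot be told apart.

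Levels of different genes are compared per kilobase of exon. In AhR-poor papain libraries the mean order was Notch3 (19.2 CPM per kb), Acta2 (8.66), Cspg4 (4.35), Tagln (1.48), Pdgfrb (0.771), Des (0.228), Kcnj8 (0.180), Rgs5 (0.0447), Abcc9 (0.0296) and Myh11 (0.0102). The 4 highest genes did not overlap with each other in that group, whereas Tagln overlapped with Pdgfrb and each gene from Des down overlapped with its neighbour. Cspg4 rather than Acta2 ranked second in both vehicle groups (7.46 CPM per kb on the I3C diet and 6.38 on the AhR-poor diet), and the ranges of the pair overlapped in I3C papain libraries. Pdgfrb, which followed Tagln in the order on the AhR-poor diet, stood below Kcnj8 and overlapped with Myh11 on the I3C diet.

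**Figure D1:**
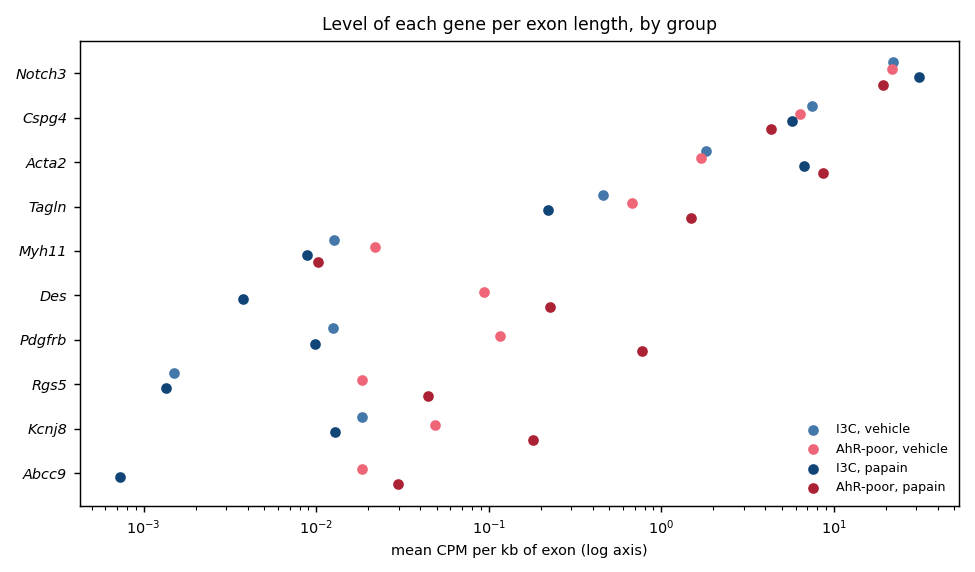
Mean level of each gene per kilobase of exon (CPM per kb, log axis) in the 4 groups, 4 libraries each. Notch3, Cspg4 and Acta2 lie above 1 CPM per kb in every group, and the points of Des and Abcc9 for I3C vehicle are not drawn because all 4 libraries had 0 counts.

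Between diets, more of the genes passed with papain than with vehicle. With vehicle, 1 of the 10 had more transcript in the AhR-poor than in the I3C libraries and none had less, against backgrounds of 1.59% and 0% of tested genes, and the median log2 fold change of the 10 was 1.03, against -0.01 over all genes. With papain, 6 of the 10 (Pdgfrb, Tagln, Kcnj8, Abcc9, Des and Rgs5) had more transcript in the AhR-poor libraries and none had less, against 7.15% and 0.0993% of tested genes, with a median log2 fold change of 3.19, against 0.01 over all genes. Papain against vehicle raised 2 of the 10 on the AhR-poor diet, Pdgfrb and Acta2, where 6.04% of genes rose and 2.42% fell, and 1 on the I3C diet, Acta2, where 3.69% rose and 5.29% fell, and it lowered none of the 10. The median log2 fold change of the 10 with papain was 1.13 on the AhR-poor diet and -0.18 on the I3C diet, against 0.00 and -0.04 over all genes. The I3C median includes Rgs5, Des and Abcc9, with 3 counts or fewer in total in both I3C groups, for which no fold can be read. It lies between the values of Pdgfrb (-0.33) and Rgs5 (-0.03, standard error 1.57), so it is a weak summary of the 10. Calls rest on the quasi-likelihood F test of edgeR across all tested genes, at an adjusted p under 0.01 and a fold of more than 1 on the log2 scale in either direction. The diet comparison with papain shares its libraries with both papain comparisons, so these counts are not independent of each other.

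**Figure D2:**
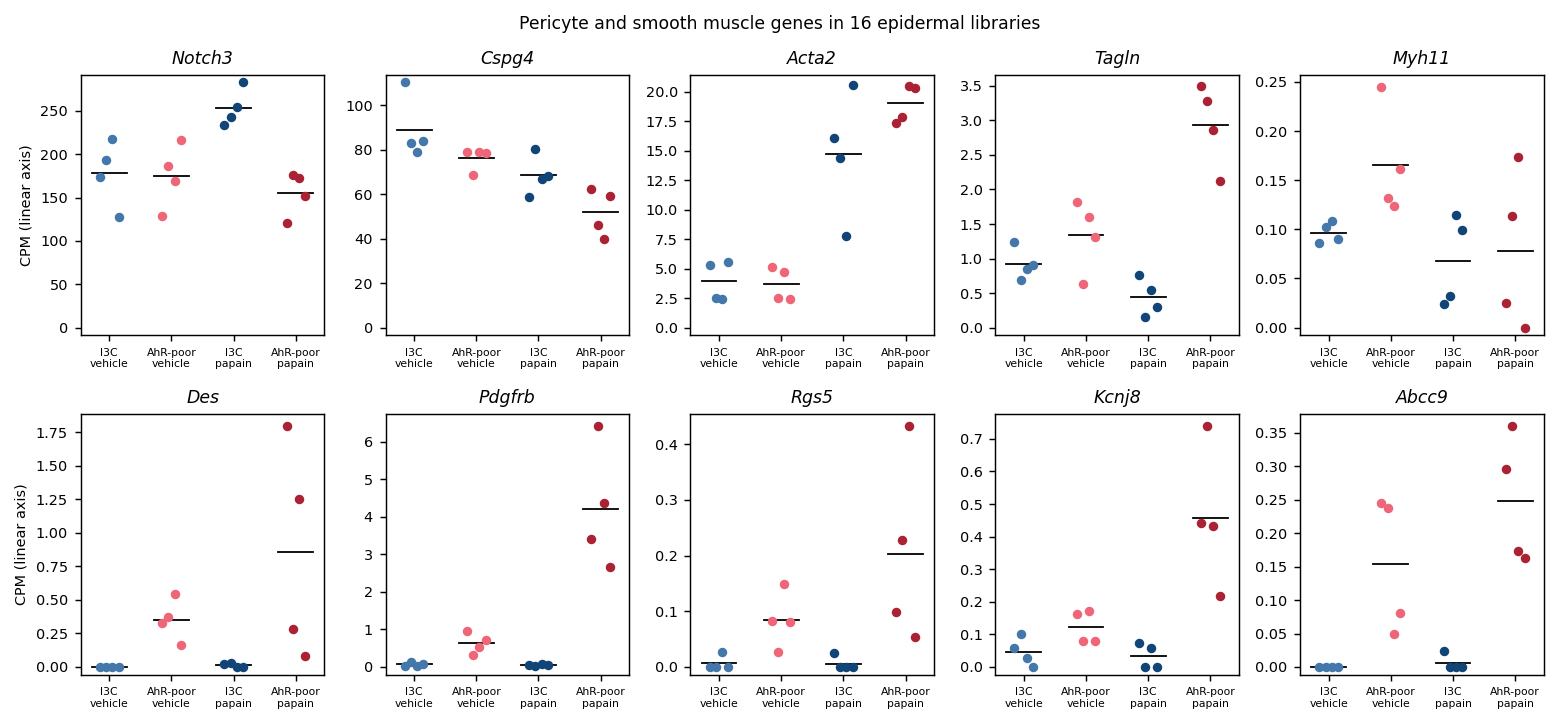
CPM of each gene in the 16 libraries (linear axes, each panel with its own scale), with a bar at the mean of each group of 4. Pdgfrb and Tagln are highest in AhR-poor papain libraries, Acta2 is raised by papain on both diets, and Rgs5, Kcnj8, Abcc9 and Myh11 stay below 1 CPM in every library.

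Notch3 (ENSMUSG00000038146, chr17:32120820-32166852, minus strand, GRCm38) and Cspg4 (ENSMUSG00000032911, chr9:56865033-56899870, plus strand) had 3996 to 11414 and 925 to 3838 counts per library. These levels did not follow the low or absent counts of the sparse mural markers. Notch3 stood at 174, 194, 218 and 128 CPM in I3C vehicle libraries, at 129, 187, 169 and 216 in AhR-poor vehicle libraries, at 233, 243, 255 and 284 with papain on the I3C diet, and at 120, 176, 173 and 152 with papain on the AhR-poor diet. All 4 I3C papain libraries were above the 12 others. With papain, Notch3 was lower on the AhR-poor diet by a log2 fold change of -0.71 (standard error 0.17, adjusted p = 0.00696 by edgeR), with groups that did not overlap, as for 12.3% of genes in that direction. This difference was under the minimum fold change and is not among the calls, and its adjusted p reached 0.0244 when 1 library was left out. Papain against vehicle gave Notch3 log2 fold changes of 0.51 on the I3C diet (adjusted p = 0.0264, groups that did not overlap, as for 16.2% of genes higher) and -0.18 on the AhR-poor diet (adjusted p = 0.469). Cspg4 had means of 89.0 ± 14.3 CPM in I3C vehicle libraries, 76.2 ± 5.11 in AhR-poor vehicle libraries, 68.4 ± 9.03 with papain on the I3C diet and 51.8 ± 10.5 with papain on the AhR-poor diet (SD, n = 4). Its log2 fold change with papain was -0.55 on the AhR-poor diet (standard error 0.13, adjusted p = 0.0038), where the groups did not overlap, as for 16% of genes in that direction, and -0.38 on the I3C diet (adjusted p = 0.0338), both under the minimum fold. Krt5 and Krt14, measured in the same libraries, were not called in any of the 4 comparisons. Of 7 basal keratinocyte genes, 1 was called lower with papain on each diet, Krt15, named after its values were seen. Its mean was 849 CPM with vehicle and 222 with papain on the I3C diet, and 1001 and 385 on the AhR-poor diet.

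Acta2 (ENSMUSG00000035783, chr19:34241090-34255590, minus strand) was raised by papain on both diets. Its levels with vehicle were 5.34, 2.55, 2.39 and 5.58 CPM on the I3C diet and 5.18, 2.51, 4.70 and 2.47 on the AhR-poor diet. With papain they were 16.1, 14.4, 7.79 and 20.6 CPM on the I3C diet and 17.4, 17.9, 20.5 and 20.3 on the AhR-poor diet. Every papain library thus lay above every vehicle library, and within each treatment the diets overlapped. In log2 units, papain changed it by 2.35 with the AhR-poor diet (standard error 0.34, adjusted p = 8.54e-05) and 1.90 on the I3C diet (standard error 0.34, adjusted p = 4.18e-04), and both calls were kept in each of the 16 fits that left out 1 library. Between diets, Acta2 differed by -0.09 with vehicle (adjusted p = 0.969) and 0.37 with papain (adjusted p = 0.479).

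The smooth muscle myosin gene was near the floor in every group. Myh11 (ENSMUSG00000018830, chr16:14194535-14291372, minus strand) had 3, 4, 4 and 3 counts in I3C vehicle libraries and 9, 5, 5 and 6 in AhR-poor vehicle libraries. With papain it had 1, 1, 4 and 4 counts on the I3C diet and 1, 6, 4 and 0 on the AhR-poor diet. These counts near the floor passed in no comparison, and only the vehicle groups did not overlap, as for 6.45% of genes higher. The number of Myh11 counts per 100 counts of Acta2 therefore changed from 1.61 to 6.52 in vehicle libraries to at most 1.47 with papain. Of 15 further contractile genes, 13 were tested, and 2 were higher with papain on the AhR-poor diet and 3 higher with 1 lower on the I3C diet. Cald1 (caldesmon) and Tpm2 (beta-tropomyosin), named after their values were seen, rose on both diets, with log2 fold changes for Cald1 of 2.36 (AhR-poor diet) and 3.00 (I3C diet) and for Tpm2 of 1.90 and 1.91. Both are also transcribed outside muscle, and Tpm2 had 2947 to 16531 counts in every library. Other members of this list went another way. Nexn and Synpo2, also named after their values were seen, fell with papain on both diets. The ratios of summed counts were 0.54 (AhR-poor diet) and 0.44 (I3C diet) for Nexn, and 0.54 and 0.56 for Synpo2. The median log2 fold change of the 13 tested was 0.22 on the AhR-poor diet and 0.32 on the I3C diet. Mylk (myosin light chain kinase) was the 1 contractile gene higher between diets with papain (log2 fold change 1.13, standard error 0.28, adjusted p = 0.00778), a call lost in 6 of the 16 fits without 1 library (T113, T114, T115, T104, T105 or T107).

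Reads of Acta2 could in principle be shared with the near-identical actins. Acta1, the skeletal muscle actin, had 2 to 7 counts in I3C papain libraries, where Acta2 had 273 to 827. In I3C vehicle libraries it had 4 to 25 counts, where Acta2 had 88 to 186. On the AhR-poor diet the 2 were closer with vehicle, Acta1 with 72 to 140 counts and Acta2 with 92 to 190. With papain on that diet Acta1 had 13 to 488 counts and Acta2 474 to 943. Actg2 and Actc1 had at most 6 and 2 counts in any library. Actb (59808 to 152011 counts) and Actg1 (31656 to 71580 counts) were abundant, and neither passed with papain on either diet, Actb with log2 fold changes of 0.03 on the AhR-poor and -0.46 on the I3C diet and Actg1 with 0.04 and -0.11. How reads with several matches were counted is not given in the sources used here. The markers of sweat glands, whose myoepithelial cells carry Acta2, were read beside it. None of 7, a list for the whole gland and not for its myoepithelial cells alone, was called higher with papain on either diet. The part of sweat gland RNA in the level of Acta2 was not tested. Their summed level was 161 to 204 CPM with vehicle and 101.3 to 133.3 with papain over both diets, most of it from the ion transporter gene Slc12a2 (145 to 194 and 95.5 to 127 CPM), and members of the list went different ways. The keratin gene Krt18, also named after its values were seen, had log2 fold changes of 1.14 on the AhR-poor diet (adjusted p = 0.0174) and 1.25 on the I3C diet (adjusted p = 0.0106), neither called. The water channel gene Aqp5 was called lower on the I3C diet (log2 fold change -2.02, adjusted p = 0.00226) and had -1.38 on the AhR-poor diet (adjusted p = 0.0206). Oxtr, named in the same way, was not called. Its ratio of summed counts, papain over vehicle, was 0.52 on the AhR-poor diet and 0.42 on the I3C diet. Between diets, AhR-poor over I3C, the ratio was 3.87 with vehicle and 4.77 with papain.

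Tagln (ENSMUSG00000032085, chr9:45929619-45936058, minus strand) followed another pattern from its partner Acta2. It stood at 1.23, 0.688, 0.843 and 0.901 CPM in I3C vehicle libraries and at 1.83, 0.635, 1.61 and 1.31 in AhR-poor vehicle libraries. With papain it stood at 0.755, 0.160, 0.542 and 0.298 CPM on the I3C diet and at 3.50, 3.28, 2.86 and 2.12 on the AhR-poor diet. With papain every AhR-poor library was above every I3C library, by 2.71 on the log2 scale (standard error 0.37, adjusted p = 3.79e-05), kept in each of the 16 fits without 1 library. Papain against vehicle gave Tagln log2 fold changes of opposite sign, 1.13 on the AhR-poor diet (adjusted p = 0.0133, groups that did not overlap, as for 17% of genes higher) and -1.03 on the I3C diet (adjusted p = 0.0443), neither called. The difference of these 2 responses was 2.16 (standard error 0.51, unadjusted p = 4.64e-04), which missed the threshold over all genes in edgeR (adjusted p = 0.0735) and passed in DESeq2 (adjusted p = 0.0022). Without library T106 its value on the I3C diet became a call (-1.44, adjusted p = 0.00888). The annotation places 1241 exonic bases of Tagln (62.4%) on the opposite strand of exons of Gm48529, which had 73 to 181 counts per library. Whether counting used the strand is not given in the sources used here. Without it, reads of Tagln and of these genes cannot be told apart where they overlap.

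Pdgfrb (ENSMUSG00000024620, chr18:61045150-61085061, plus strand) differed between the diets with either treatment. It had 1, 5, 1 and 3 counts in I3C vehicle libraries and 2, 1, 3 and 2 in I3C papain libraries, at or near the floor. On the AhR-poor diet it had 35, 12, 22 and 27 counts with vehicle (0.953, 0.318, 0.544 and 0.724 CPM) and 98 to 339 with papain (3.42, 6.43, 4.37 and 2.66 CPM). The 3 ranges, I3C, AhR-poor with vehicle and AhR-poor with papain, did not overlap. The log2 fold change between diets was 3.13 with vehicle (standard error 0.49, adjusted p = 8.63e-04) and 6.20 with papain (standard error 0.46, adjusted p = 1.07e-07), and papain raised it by 2.73 on the AhR-poor diet (standard error 0.33, adjusted p = 5.26e-06). All 3 calls were kept in each fit without 1 library. On the I3C diet papain gave -0.33 (adjusted p = 0.77), and the difference of the 2 papain responses was 3.07 (standard error 0.84, unadjusted p = 0.00169, adjusted p = 0.125).

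Other genes of PDGF and Notch signalling were read from a list of 19. With papain, 5 of the 19 were called higher between the diets and none lower, a count of 3 in the fits without T113, T114, T115 or T104. Pdgfra, the receptor that marks fibroblasts, was higher by a log2 fold change of 6.51 with papain (standard error 0.50, adjusted p = 6.18e-07), with 407 to 1463 counts on the AhR-poor against 3 to 20 on the I3C diet. Angpt2, an angiopoietin of activated endothelium, was higher by 4.97 (adjusted p = 1.24e-04), and Dll4, an endothelial Notch ligand, by 2.88 (adjusted p = 7.99e-05). Pdgfd, a ligand of the receptor encoded by Pdgfrb, had 2 to 11 counts against 0 or 1. The more abundant ligand genes Pdgfa and Pdgfb (503 to 1670 counts) had log2 fold changes of 0.21 and 0.01 between diets with papain and were not called.

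Beside Pdgfrb, markers of dermal fibroblasts moved with the diet. Of 13, the AhR-poor diet gave 10 higher with vehicle and 10 with papain, among them Mfap5, Pi16 and Lum, with log2 fold changes of 9.13, 8.22 and 6.83 with papain, and Lox, with 149 to 625 counts against 0 to 2. Col1a1, the main fibrillar collagen gene, had 21 to 99 counts on the I3C diet, 768 to 1199 on the AhR-poor diet with vehicle and 1622 to 5961 with papain. The summed fibroblast level was 288 to 513 CPM on the I3C diet, 406 to 635 on the AhR-poor diet with vehicle and 835 to 1264 with papain. Without Postn, Thy1 and Fbln1, the 3 genes not called between diets, it was 2.31 to 13.7, 102.7 to 184 and 281 to 707 CPM. This sum was chosen after the data were seen. It holds only genes called higher on the AhR-poor diet, so its difference between diets follows from the choice. No marker of the list was at 0 throughout a group. In AhR-poor libraries there were 1.56 to 3.16 counts of Pdgfrb per 100 of Col1a1 with vehicle and 3.79 to 6.04 with papain. Per 100 of Pdgfra the direction was the opposite, with 25.5 to 73.3 counts of Pdgfrb with vehicle and 15.9 to 24.1 with papain. The part of fibroblast RNA in the difference of Pdgfrb and of Tagln was not tested.

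**Figure D3:**
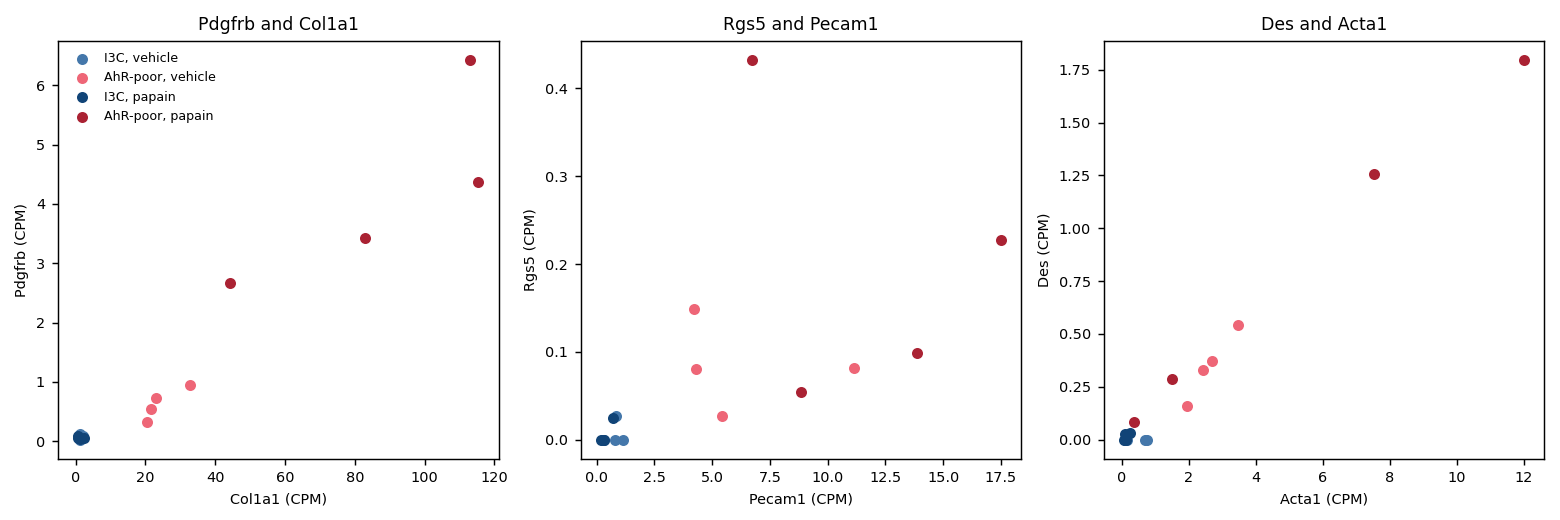
CPM of Pdgfrb against Col1a1, of Rgs5 against Pecam1 and of Des against Acta1 in the 16 libraries (linear axes, 1 point per library, colours as groups). Pdgfrb and Des are high in the libraries in which Col1a1 and Acta1 are high, and the highest Rgs5 level, in T107, is not in the library with the highest Pecam1 level, T105.

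Kcnj8 (ENSMUSG00000030247, chr6:142564837-142571614, minus strand), Abcc9 (ENSMUSG00000030249, chr6:142587862-142702315, minus strand) and Rgs5 (ENSMUSG00000026678, chr1:169655501-169695813, plus strand) are members used to mark pericytes. Kcnj8 and Abcc9 are neighbours on chromosome 6. The bases before the annotated start of each are shown because all 3 passed as higher between diets with papain. They are from RefSeq on GRCm38.p6, written 5′ to 3′ along the gene, the 250 bases before the start for Rgs5 (chr1:169655251-169655500, plus strand) and Kcnj8 (chr6:142571615-142571864, minus strand), and for Abcc9 the 209 of these bases that lie outside its annotated exons (chr6:142702316-142702524, minus strand). Capitals mark TGGGAA, the core of the site bound by RBPJ, the Notch effector.
Rgs5: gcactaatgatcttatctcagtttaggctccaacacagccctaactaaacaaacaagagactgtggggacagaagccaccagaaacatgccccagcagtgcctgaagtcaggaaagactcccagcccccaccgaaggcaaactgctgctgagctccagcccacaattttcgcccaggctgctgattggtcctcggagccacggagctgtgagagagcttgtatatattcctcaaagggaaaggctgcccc
Kcnj8: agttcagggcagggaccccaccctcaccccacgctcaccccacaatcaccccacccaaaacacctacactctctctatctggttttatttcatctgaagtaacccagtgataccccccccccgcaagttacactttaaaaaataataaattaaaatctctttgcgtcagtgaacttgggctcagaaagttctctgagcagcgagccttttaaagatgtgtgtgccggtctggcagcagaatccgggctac
Abcc9: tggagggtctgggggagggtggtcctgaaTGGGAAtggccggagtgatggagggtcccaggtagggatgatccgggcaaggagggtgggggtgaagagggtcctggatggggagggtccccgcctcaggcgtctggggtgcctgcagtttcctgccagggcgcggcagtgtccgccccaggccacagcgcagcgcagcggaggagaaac
Windows of 250 bases before and 50 after the start were listed for 7 of the 10 genes, and both strands were searched. TGGGAA was found in 3 of the 7, in Abcc9 221 bases before the start, in Acta2 27 bases before it and in Kcnj8 at base 1 after it, and it occurs in 25.6% of all 32851 windows. The CArG box, the site bound by serum response factor in contractile genes, was found in its strict form in none of the 7 and occurs so in 1.63% of all windows. With up to 1 base changed, a search added after the data were seen, it was found in 3 of the 7, Acta2, Cspg4 and Kcnj8, and in 21.1% of all windows. A match is a description of these letters, and its absence holds for these windows and patterns only.

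Kcnj8 had 2, 4, 1 and 0 counts in I3C vehicle libraries, 6, 3, 7 and 3 in AhR-poor vehicle libraries, 3, 0, 2 and 0 with papain on the I3C diet and 18, 39, 10 and 8 with papain on the AhR-poor diet. All 4 AhR-poor papain libraries were above the 12 others. With papain the log2 fold change between diets was 3.66 (standard error 0.68, adjusted p = 7.3e-04, 4.41 without T106), and papain gave 1.88 on the AhR-poor diet (adjusted p = 0.0129), just short of a call. Abcc9 had 0 counts in each I3C vehicle library, 9, 9, 2 and 3 in AhR-poor vehicle libraries, 1, 0, 0 and 0 with papain on the I3C diet and 12, 19, 4 and 6 with papain on the AhR-poor diet. With vehicle, the AhR-poor total of Abcc9 was 7.26-fold that of 3 counts over the I3C group. This value allows for no error in the AhR-poor counts or between mice. Abcc9 just missed the call (adjusted p = 0.0104). With papain it passed (adjusted p = 0.00116), and the ratio of the groups was 39.5 (95% exact counting interval 6.70 to 1597). Papain against vehicle on the AhR-poor diet left Abcc9 uncalled (log2 fold change 0.74, adjusted p = 0.336).

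The genes of the other KATP channel went another way. Abcc8 and Kcnj11, the regulatory and pore subunits known from pancreatic beta cells, had log2 fold changes of 0.01 and -0.02 between diets with papain. Papain raised Abcc8 on both diets, by 3.46 on the AhR-poor diet (standard error 0.37, adjusted p = 1.29e-06) and by 2.84 on the I3C diet (standard error 0.35, adjusted p = 3.64e-06). It had 6 to 25 counts with vehicle and 54 to 217 with papain. Kcnj11 had 0 to 3 counts with vehicle and 3 to 11 with papain, and it passed on the I3C diet (adjusted p = 0.00651) and not on the AhR-poor diet (adjusted p = 0.0369).

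Rgs5 had 0, 0, 1 and 0 counts in I3C vehicle libraries, 3, 1, 6 and 3 in AhR-poor vehicle libraries, 1, 0, 0 and 0 with papain on the I3C diet and 4, 12, 10 and 2 with papain on the AhR-poor diet. It had at most 1 count in any I3C library and never exceeded 0.433 CPM, and without T106 the I3C papain group held no count of Rgs5 or Abcc9. With papain the diets did not overlap, as for 12.5% of genes higher, and Rgs5 passed (adjusted p = 0.00419) with a ratio of 27.0 (95% exact counting interval 4.46 to 1102). The call was lost in 5 of the 16 fits without 1 library (T113, T114, T115, T105 or T107), with an adjusted p of up to 0.0188. With vehicle it did not pass (ratio 12.3, interval 1.85 to 523, adjusted p = 0.172). Over the 16 libraries, the genes of at least 1 CPM on average with the nearest pattern to Rgs5 were Ptpn7, Cd48, Fyn, Gpsm3 and Ppm1h, with root mean square differences of 0.42, 0.48, 0.48, 0.48 and 0.48 in centred log2 CPM among 13026 genes. Those nearest to Myh11 were Tmod4, Frg2f1, Gm14921, B3galt4 and Traf5 (0.46, 0.48, 0.48, 0.49 and 0.49). With 43 and 60 counts in all, Rgs5 and Myh11 have patterns that counting error shapes strongly.

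Of 16 further pericyte markers, 15 were tested, and 3 passed as higher between diets with papain, a count that fell to 1 without T114, T115, T104 or T105. With vehicle 2 passed as higher, Gucy1a1 and Gucy1b1, a count that fell to 1 in 8 of the 16 fits without 1 library (T100, T101, T104, T107, T108, T109, T110 or T115). Tbx18, a transcription factor of mural cells, had 0 or 1 count on the I3C diet and 5 to 28 on the AhR-poor diet with papain. Gucy1a1 and Gucy1b1, the subunits of the nitric oxide receptor guanylate cyclase, had 0 to 3 and 0 to 2 counts against 2 to 25 and 3 to 19. With vehicle they had 0 or 1 and 3 to 7 counts on the I3C diet and 10 to 47 and 11 to 54 on the AhR-poor diet. Papain lowered Gucy1b1 on the AhR-poor diet (log2 fold change -1.81, standard error 0.50, adjusted p = 0.0082), and Gucy1a1 had -0.99 there and was not called (adjusted p = 0.195), whereas Kcnj8 had 1.88. Mcam and Gja4, named after their values were seen, moved in opposite directions with papain on both diets, Mcam by log2 fold changes of 1.60 on the AhR-poor and 1.51 on the I3C diet and Gja4 by -1.31 and -1.83. Ndufa4l2, also named after its values were seen, had 2497 to 10057 counts per library. With papain it stood at 147 to 193 CPM on the I3C and 78.5 to 141 on the AhR-poor diet, not called. These groups did not overlap, as for 12.3% of genes lower. The summed level of the 16 with papain was 220 to 253 CPM on the I3C and 164 to 229 on the AhR-poor diet. With vehicle it was 207 to 333 and 214 to 233 CPM, and most of each sum came from Ndufa4l2.

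Endothelial markers, the cells that pericytes accompany, moved with the diet beside Rgs5, Kcnj8 and Abcc9. Of 15, the AhR-poor diet gave 12 higher with vehicle and 14 with papain, among them Emcn, Kdr, Cdh5 and Eng, at 5.56, 5.47, 5.46 and 5.18 on the log2 scale between diets with papain. Their summed level was 3.82 to 8.39 CPM on the I3C diet, 23.5 to 59.2 on the AhR-poor diet with vehicle and 48.2 to 110 with papain, and none was at 0 throughout a group. Pecam1 had 6 to 45 counts on the I3C diet and 155 to 924 on the AhR-poor diet, and the 8 AhR-poor libraries held 0.488 to 6.45 counts of Rgs5 per 100 of Pecam1. The part of endothelial and vessel RNA in the differences of Rgs5, Kcnj8 and Abcc9 was not tested. Blood and immune markers moved the same way. All 5 red blood cell genes were called higher between diets with papain, and with vehicle 5 were, a count that fell to 1 without T108 or T109, to 2 without T110, T111 or T100 and to 3 without T102. Their summed level was 0.258 to 17.2 CPM on the I3C diet and 73.2 to 1254 on the AhR-poor diet. Of 7 leukocyte genes, 4 were called higher between diets with papain (7 without T106). Adipocyte genes gave 2 of 4 tested with papain, Fabp4 and Cidec, Schwann cell genes gave 1 of 7, Sox10 (none without T113, T115 or T104), and of 15 basal and suprabasal keratinocyte genes none was called between diets with papain (1 without T106).

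Des (ENSMUSG00000026208, chr1:75360329-75368579, plus strand) had 0 counts in each I3C vehicle library and 12, 14, 22 and 6 in AhR-poor vehicle libraries. With papain it had 1, 1, 0 and 0 counts on the I3C diet and 73, 15, 29 and 3 on the AhR-poor diet, so T104 alone held 73 of 120 counts. With papain it was higher on the AhR-poor diet (adjusted p = 0.00284, ratio 57.8, 95% exact counting interval 15.6 to 482), a call lost without T113, T114 or T115 (adjusted p of up to 0.0153). With vehicle its AhR-poor total was 17.04-fold that of 3 counts over the I3C group, again with no error allowed in the AhR-poor counts. Des was not called there (adjusted p = 0.0401). Several markers of skeletal muscle moved beside it. Acta1 had 488, 78, 174 and 13 counts in the AhR-poor papain libraries T104, T105, T107 and T112, the same order as Des, and the 8 AhR-poor libraries held 8.33 to 23.1 counts of Des per 100 of Acta1. Of 12 tested skeletal muscle genes, 6 passed as higher between diets with papain (3 without T115), with Myh1, Tnnt3, Acta1 and Tnnc2 the largest. With vehicle 0 passed, and 0 to 2 in the fits without 1 library. Mylpf and Tnni2, named after their values were seen, differed less, with ratios between diets of 1.39 and 1.12 with vehicle and 1.27 and 1.80 with papain. Tnnc2 shares 74.0% of its exonic bases with Ube2c on the opposite strand. The summed skeletal muscle level was 6.56 to 8.31 CPM on the I3C diet, 11.1 to 20.003 on the AhR-poor diet with vehicle and 9.27 to 43.9 with papain, with Myh1, Myh4 and Myl1 at 0 in all I3C papain libraries. The part of skeletal muscle RNA in the difference of Des was not tested.

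**Figure D4:**
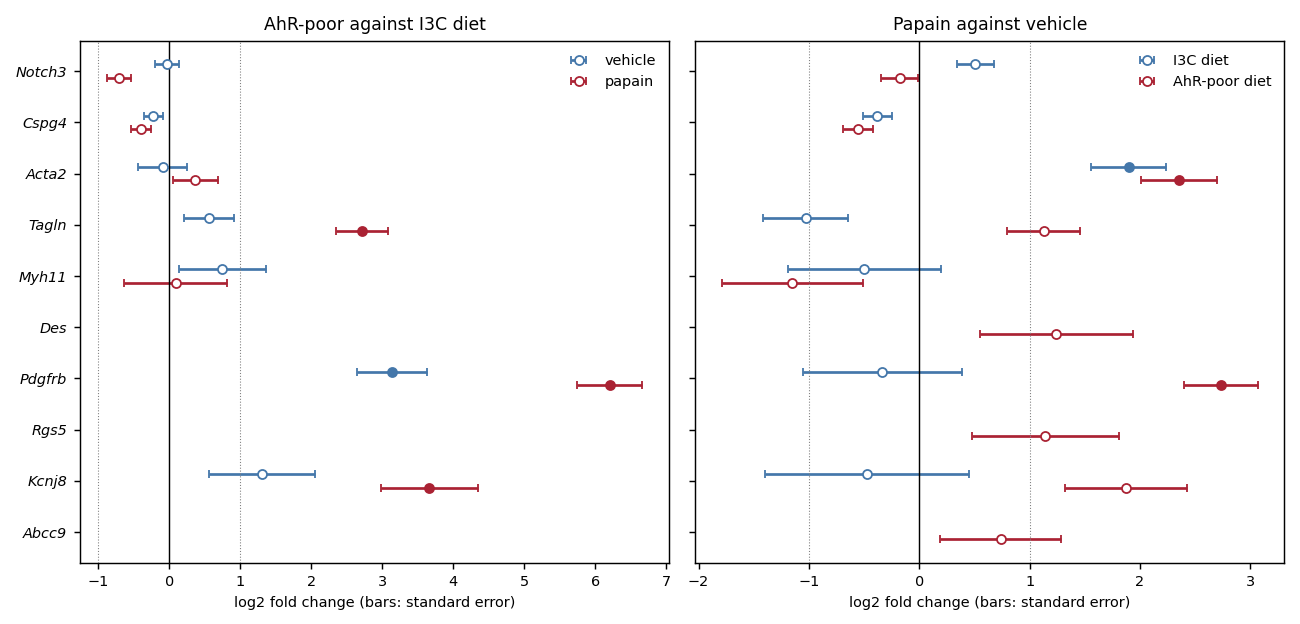
log2 fold changes with standard errors for the diet comparisons (left) and the papain comparisons (right), with dotted lines at the minimum of 1 and filled points for calls. Comparisons in which a group had 3 counts or fewer in total are not drawn. Pdgfrb, Tagln and Kcnj8 are filled for the diets with papain, and Acta2 is filled for papain on both diets.

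No gene of the 10 passed the interaction of diet and papain in edgeR, where 0.0181% of tested genes passed, whereas 4 of the 10 had an unadjusted p below 0.05 (Tagln, Pdgfrb, Notch3 and Kcnj8) and DESeq2 called 1, Tagln. The papain responses of the 10 on the 2 diets are thus given side by side above, and a difference between them was shown for none of the 10 by the edgeR test.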

How the data were processed

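Gene expression was measured by RNA-seq with the TruSeq Stranded mRNA kit. The authors mapped the reads to mm10 using STAR and deposited raw counts per Ensembl gene, not normalized. The counting tool, its strand setting and the annotation release are not given in the sources used here. Symbols, positions and exon lengths were taken from GENCODE M21 (50376 of 50600 genes matched), and bases before gene starts from RefSeq.

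Libraries were grouped by their labels. Genes reaching a total of 10 counts entered the robust quasi-likelihood F test of edgeR 4.0.16 (R 4.3.3, TMM scaling, a mean for each of the 4 groups), with p-values adjusted by Benjamini and Hochberg over 22155 genes. Standard errors are the log2 fold change divided by the root of F. CPM are counts divided by the library total after scaling by TMM factors (0.937 to 1.07). For a group with 3 counts or fewer in total, a ratio of summed counts is given with its exact 95% interval, and for a group at 0 a bound against 3 counts. The 10 genes and the companion lists were chosen with earlier results of these data known. Named from each list were up to 4 genes called between diets with papain with the largest change, or else the 2 with the highest CPM, besides defining markers. The nearest patterns used genes of at least 1 CPM on average and a prior count of 2. Each result was computed again with RLE factors, with unscaled library sizes, with filterByExpr, without the minimum of 10 counts, with DESeq2 1.42.0 (Wald), on the 8 libraries of a comparison alone, at an adjusted p of 0.05, with no limit on the fold, and with 1 library removed at a time. Simulated counts with known changes served to check the model. The changes were placed only in genes with more counts than Rgs5, Myh11, Kcnj8, Abcc9 and Des, and with the same spread for all genes. The check therefore does not cover the calls of these sparse genes. Any pair of replicates differed by more than counting error (chi-square per degree of freedom of 9.43 or more).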

Additional observations from a re-analysis of the deposited data

Results flagged for a closer look

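Among the 40 groups of 4 libraries examined (10 genes in 4 groups), 5 held a library whose gap to its nearest neighbour took up most of the range of the group, more than the 0.829 allowed at 95%. Chance alone flags about 1 group in 20 of continuous values, a rate that does not hold for 3 of the 5, in which 1 library held a single count and the others 0, so that the gap equals the range by construction. For Rgs5, the single count of I3C vehicle library T110 (0.0272 CPM) and the single count of I3C papain library T106 (0.0244 CPM) stood against 0 in the other libraries of their groups. For Abcc9, the single count of T106 (0.0244 CPM) likewise stood against 0 in the other I3C papain libraries. For Cspg4, I3C vehicle library T108 was high at 110.2 CPM (3838 counts), and AhR-poor vehicle library T101 was low at 68.5 CPM (2587 counts).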

How the results depend on the processing

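No paired analysis was possible because the groups share no replicate codes. Between diets with vehicle, 1 of the 10 genes was called, and 2 were called with library size only, with every gene of at least 1 count or with only the 8 libraries compared, 3 with DESeq2 or an adjusted p below 0.05, and 1 to 2 in the fits without 1 library (2 without T102 or T112). Des and Abcc9 were the genes gained. Between diets with papain, 6 were called, 3 with filterByExpr, which does not keep Rgs5, Myh11, Kcnj8 and Abcc9, and 4 to 6 without 1 library. With only the 8 libraries compared, the calls of Rgs5 (adjusted p = 0.0123) and Des (adjusted p = 0.0126) were lost in edgeR. For papain on the AhR-poor diet, 2 were called, 4 with DESeq2, with only the 8 libraries compared or with an adjusted p below 0.05, and 2 to 4 without 1 library (4 without T112), Tagln and Kcnj8 being gained. For papain on the I3C diet, 1 was called, 2 with an adjusted p below 0.05, and 1 to 2 without 1 library. For the interaction, 0 were called, 1 with DESeq2, and 0 in each fit without 1 library. Signs turned for uncalled genes alone. The log2 fold change of Notch3 between diets with vehicle was 0.0169 with library size only and -0.1545 to 0.0928 without 1 library. Without 1 library, that of Acta2 between diets with vehicle was -0.29 to 0.13, that of Myh11 between diets with papain -0.37 to 0.49, and those of Pdgfrb and Kcnj8 with papain on the I3C diet -0.61 to 0.17 and -1.22 to 0.21. Where no construction of the alternative is named, the cause was not tested. Over 44 results for single genes, the alternatives left 982 values on the same side with the same direction, 27 gained a call, 10 lost one and 14 turned sign. Depth limits Rgs5, Myh11 and Abcc9 most, with 43 to 65 counts each over all libraries.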
